A study of Mus musculus with 8 samples.

Results

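Imprinted growth regulators are genes that are read mainly from the copy of 1 parent and that raise or restrain the growth of the embryo and placenta. 7 of them were followed here, H19, Igf2, Igf2r, Grb10, Cdkn1c, Phlda2 and Airn, taken by name from a table of 20153 mouse gene identifiers. Each had a single entry that was used, and all 7 were among the 11083 genes that reached 1 FPKM in at least 2 libraries and were tested. FPKM counts the sequenced fragments of a gene relative to its transcript length and to the library's mapped total, so levels of different genes can be set side by side.

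The 8 RNA-seq libraries, all from mouse cells, form 4 groups with 2 libraries each. Embryonic germ cell (EGC) lines 4 and 7 were pluripotent lines derived from sorted E9.5 primordial germ cells of the Oct4gfpXCD1 strain. They were at passage 6, with 500 start cells given per library. The protocol gives serum and LIF on a layer of feeder fibroblasts for them. PGCLCs were grown as aggregates by way of EpiLCs from BVSC embryonic stem cells (passage 21), with 300 to 500 cells per library. The iPGCs came from the same BVSC cells at passage 21 by hanging drops, with 1500 cells. Primordial germ cells (PGCs), from which eggs and sperm later form, were endogenous cells of E9.5 embryos of the Oct4gfpXCD1 strain, labelled passage 0, at about 250 cells a library. Apart from the names Oct4gfpXCD1 and BVSC, which differ between groups, the labels describe no genetic change or drug that separates them. Each EGC library is 1 line, and strain differs along with cell type when iPGCs or PGCLCs are set against PGCs or EGCs, so these cannot be told apart. The sources name 2 biological replicates per group without saying whether separate embryos or cultures are meant, and p-values measure the spread between these libraries.

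Imprinting marks are laid down on DNA in the parents' germ lines and are erased in primordial germ cells of the embryo before new ones are set. H19 and Igf2 lie side by side and compete for shared enhancers: on the maternal copy the insulator protein CTCF binds between them and H19 is read, and on the paternal copy that region is methylated and Igf2 is read. Igf2r, which takes Igf2 out of circulation, is silenced on the paternal copy by Airn, a long RNA read across it in the opposite direction. Grb10, Cdkn1c and Phlda2 restrain growth and are read mainly from the maternal copy in most tissues.

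The 7 genes lie on 3 chromosomes of the GRCm38 genome, given here with coordinates from GENCODE M21. On chromosome 7, H19 (chr7:142575529-142578143) and Igf2 (chr7:142650766-142666816) are 72.6 kb apart, and Cdkn1c (chr7:143458339-143461050) begins 791.5 kb beyond Igf2. Phlda2 (chr7:143501545-143503150) follows Cdkn1c at 40.5 kb. All 4 are on the minus strand. Grb10 (chr11:11930508-12038683) stands on the minus strand of chromosome 11. On chromosome 17, Igf2r (chr17:12682406-12769664, minus strand) and Airn (chr17:12741311-12860136, plus strand) overlap by 28354 bases. The use of strand in counting is not given in the sources used here, so reads from the shared stretch cannot be assigned to Igf2r or Airn with certainty. The same holds for Igf2 and its antisense transcript Igf2os, which overlap by 7124 bases.

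Promoter sequence from RefSeq (GRCm38.p6) was at hand for 5 of the 7 genes, as 9 windows of 300 bases around annotated starts. CpG dinucleotides are shown because imprinting marks are methyl groups on them. In the sequences below, 250 bases before each start are written 5′ to 3′ on the gene's own strand with CpG in capitals. The pair at the Igf2r locus is shown because the 2 genes are read across each other, and the Grb10 and Igf2 windows because each gene has several starts of unlike CpG content. The windows are Igf2r at chr17:12769707-12769956 (minus), Airn at chr17:12741061-12741310 (plus), Grb10 start 1 at chr11:12037421-12037670 (minus), Grb10 start 2 at chr11:12027972-12028221 (minus) and Igf2 start 3 at chr7:142658805-142659054 (minus).
Igf2r: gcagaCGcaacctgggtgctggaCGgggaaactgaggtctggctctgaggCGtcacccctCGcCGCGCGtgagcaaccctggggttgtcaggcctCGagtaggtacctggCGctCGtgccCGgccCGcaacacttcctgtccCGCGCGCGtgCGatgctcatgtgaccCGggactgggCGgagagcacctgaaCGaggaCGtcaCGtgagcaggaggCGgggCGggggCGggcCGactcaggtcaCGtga
Airn: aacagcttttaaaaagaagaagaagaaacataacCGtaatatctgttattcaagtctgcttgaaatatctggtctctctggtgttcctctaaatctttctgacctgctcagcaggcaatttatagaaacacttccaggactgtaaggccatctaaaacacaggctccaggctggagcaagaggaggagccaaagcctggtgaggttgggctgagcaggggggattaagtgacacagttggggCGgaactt
Grb10 start 1: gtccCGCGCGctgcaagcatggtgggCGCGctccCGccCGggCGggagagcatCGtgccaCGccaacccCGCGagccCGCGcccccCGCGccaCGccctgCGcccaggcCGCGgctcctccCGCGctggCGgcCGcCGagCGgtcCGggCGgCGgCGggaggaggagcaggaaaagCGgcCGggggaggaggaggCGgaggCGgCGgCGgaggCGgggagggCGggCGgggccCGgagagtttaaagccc
Grb10 start 2: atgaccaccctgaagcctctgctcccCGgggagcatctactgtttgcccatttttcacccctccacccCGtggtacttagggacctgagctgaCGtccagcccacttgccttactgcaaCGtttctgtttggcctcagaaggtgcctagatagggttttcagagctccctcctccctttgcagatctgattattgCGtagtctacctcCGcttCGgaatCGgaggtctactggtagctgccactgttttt
Igf2 start 3: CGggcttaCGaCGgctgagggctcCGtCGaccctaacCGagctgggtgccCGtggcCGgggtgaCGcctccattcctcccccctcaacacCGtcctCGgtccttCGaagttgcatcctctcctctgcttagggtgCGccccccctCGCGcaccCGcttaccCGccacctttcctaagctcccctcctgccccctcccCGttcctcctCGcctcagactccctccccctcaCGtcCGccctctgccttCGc

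Over the whole window of 300 bases, Grb10 start 1 held 45 CpG, more than 98.1% of the 32851 windows in the table, and Grb10 start 2 held 9. Igf2r held 34 CpG, more than 92.3% of windows, whereas Airn held 3. The windows follow annotated starts and were not matched to the regions that carry imprints. Methylation was not measured, so these counts do not place a mark at either gene. Phlda2 held 26, and the 4 Igf2 starts held 2, 14, 24 and 7 in transcript order. The median was 14 over the 9 windows of these genes and 7 over all windows. The hexamer TGCCGC, known as the core motif of the imprint-protecting factor ZFP57, was searched on both strands and was present in 2 of the 9 windows, 1 of Grb10 and 1 of Igf2, against 11.6% of all windows. TATAAA, searched in the same way, was present in 2 of the 9, Airn and Phlda2, against 13.6% of all windows. Neither motif can overlap the other, and a match describes only these letters.

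Depth, estimated from the steps between low FPKM values, ran from about 2.46 M reads in iPGC library 1 to about 17.98 M reads in PGC library 1. The score for regular steps, the best over many trial depths, was low: 1.58 and 1.78 in PGC libraries 1 and 2, and 3.37 at most. These depths, and the read numbers based on them, are therefore uncertain. Each library had 7991 to 10039 genes at 1 FPKM or more. Summed germ cell markers (11 genes) were at 212.3 and 319.8 FPKM in EGCs, 1610 and 785.9 in PGCLCs, 773.4 and 763.2 in iPGCs, and 639.6 and 1466 in PGCs. PGC library 1 stood apart from PGC library 2 in some lists of markers of other embryonic cells, but not in all. Its 14 yolk sac and extraembryonic endoderm markers summed to 235.0 FPKM (11 at 1 FPKM or more, with Amn and Sox7 listed at 0), and those of library 2 to 2.752 FPKM (1 at 1 FPKM or more, with Afp, Apoa1 and Ttr among 9 listed at 0). Its blood and myeloid markers (10 of 13 listed had an entry) summed to 135.2 FPKM, against 14.51 in library 2. Its mesoderm markers summed to 81.33 FPKM, against 29.3, with T alone at 37.9 FPKM in library 1. Tbx4, Tbx6, Msx1 and Msx2 of that list were higher in library 2. Trophoblast markers summed to 8.09 FPKM in library 1 and 1.94 FPKM in library 2. Nearly all of this was Tfap2a in library 1 (8.02 FPKM) and Cdx2 in library 2 (1.91 FPKM), so the list as a whole shows no direction. The sums of endothelial markers, at 23.7 and 63.4 FPKM, and of feeder fibroblast markers, at 161.4 and 194.3 FPKM, went the other way. Pecam1, at 18.9 and 55.9 FPKM, made up most of the endothelial sums. Sparc, at 76.6 and 124 FPKM, and Fn1, at 47.7 and 68.5 FPKM, made up most of the feeder sums. Egfl7 was also higher in library 2, but Cdh5, Kdr, Tek, Col1a1, Col3a1, Lum, Postn and S100a4 were higher in library 1. Of the feeder markers, 8 reached 1 FPKM in library 1 and 2 in library 2. Feeder fibroblast markers (11 genes) summed to 64.9 and 81.9 FPKM in the EGC lines, against 127.5 to 195.4 FPKM in the other 6 libraries. Sparc, at 13.3 and 36.6 FPKM, and Fn1, at 50.2 and 41.7 FPKM, made up most of the EGC sums. Col1a2, Col3a1, Lum, Dcn, Postn and S100a4 were listed at 0 in both lines, as in both iPGC libraries. The sums therefore do not compare the list as a whole. In bulk RNA, fewer cells of a type and less RNA per cell cannot be told apart.

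**Figure D1:**
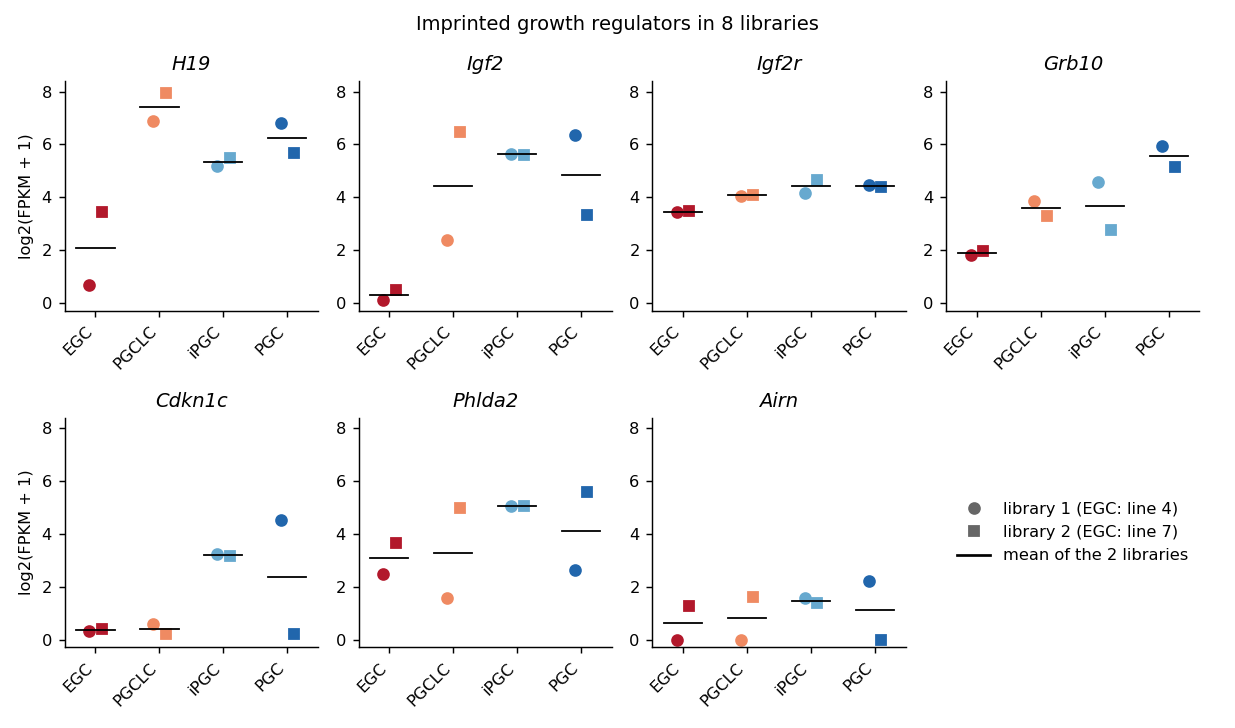
Level of each of the 7 genes as log2(FPKM + 1) in every library, with EGCs, PGCLCs, iPGCs and PGCs from left to right. Circles are library 1 (EGC line 4), squares library 2 (EGC line 7), and lines the mean of the pair; H19, Igf2, Igf2r and Grb10 have their lowest values in EGCs, and Igf2, Cdkn1c and Phlda2 are far apart between PGC libraries.

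In EGCs all 7 genes had a lower mean level than in PGCs, and for H19, Igf2, Igf2r and Grb10 both EGC lines lay below both PGC libraries, as the plot of levels by library shows. None of the 7 passed the test over all genes in any of the 6 comparisons between groups, or in the F test for any difference among the 4 groups (limma, Benjamini-Hochberg adjusted p below 0.05). With 2 libraries a group, differences had to be large to be called, and the smallest called difference between EGCs and PGCs was 2.44 on the log2(FPKM + 1) scale. The background was also low: 0.74% of genes were called between EGCs and PGCs, 0.794% between iPGCs and PGCs, 1.06% between PGCLCs and PGCs, 0.018% between PGCLCs and iPGCs, 0.117% between EGCs and iPGCs, 0.0993% between EGCs and PGCLCs, and 0.505% in the F test. At an unadjusted p below 0.05, the counts in the same order were 3, 1, 1, 2, 4 and 3 of the 7 genes, and 17.2%, 19.5%, 19.5%, 4.7%, 10.3% and 13.9% of all tested genes.

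H19, the maternally read long noncoding RNA, had the highest single value of the 7 genes and the clearest order of groups. Its level was 0.615 FPKM in EGC line 4 and 9.82 FPKM in EGC line 7, 117.1 and 244.2 FPKM in PGCLCs, 35.7 and 43.4 FPKM in iPGCs, and 110.7 and 49.4 FPKM in PGCs. No group overlapped its neighbour in the order PGCLC, PGC, iPGC, EGC. The lowest PGCLC library lay just above the highest PGC library. Among the tested genes of a library, H19 stood at percentiles 18.8 and 68.7 in the EGC lines and 96.7 and 99.4 in PGCLCs.

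The H19 difference of EGCs from PGCs was -4.17 ± 0.86 on the log2(FPKM + 1) scale (SE, limma adjusted p = 0.0715), with group means of 5.22 ± 6.51 and 80.1 ± 43.3 FPKM (SD, n = 2 each). From PGCLCs the EGCs differed by -5.35 (limma adjusted p = 0.0888), and from iPGCs by -3.27 (0.294). PGCLCs differed from iPGCs by 2.08 (adjusted p = 1) and from PGCs by 1.18 (0.49). The 2 EGC lines were themselves 15.97 times apart, the widest ratio between libraries for H19, against 2.09 times in PGCLCs, 1.21 times in iPGCs and 2.24 times in PGCs. Without EGC line 7 the difference of EGCs from PGCLCs was -6.72 and passed the test (limma adjusted p = 0.0416), with the lone line assumed to vary like the other groups.

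Igf2, the paternally read growth factor made by many embryonic tissues, was close to 0 in both EGC lines and uneven elsewhere. It had 0.0907 and 0.396 FPKM in EGC lines 4 and 7, 4.24 and 87.7 FPKM in PGCLCs, 48.6 and 47.6 FPKM in iPGCs, and 81.0 and 9.13 FPKM in PGCs. EGCs lay below every other library. The 3 other groups overlapped, since the libraries of PGCLCs were 20.67 times apart and those of PGCs 8.87 times, whereas the iPGC libraries were 1.02 times apart.

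The Igf2 difference of EGCs was -5.31 from iPGCs (limma adjusted p = 0.293), -4.55 ± 1.31 from PGCs (SE, 0.14) and -4.13 from PGCLCs (0.249), all on the log2(FPKM + 1) scale. When EGCs and iPGCs were fitted without the other groups, the difference from iPGCs passed the test (limma adjusted p = 0.0402). The value of 0.0907 FPKM in EGC line 4 corresponds to about 7.24 reads if all annotated exons were counted and the uncertain depth estimate holds. Between iPGCs and PGCs (0.77), PGCLCs and PGCs (-0.42) and PGCLCs and iPGCs (-1.19) the sign of the Igf2 difference turned when single libraries were left out.

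H19 and Igf2 did not keep a fixed ratio. H19 was 6.78 and 24.81 times Igf2 in EGC lines 4 and 7, 27.61 and 2.79 times in PGCLCs, and 1.37 and 5.41 times in PGCs. Only in the iPGC libraries was Igf2 the higher of the pair, with H19 at 0.735 and 0.911 times Igf2. Both PGCLC libraries thus had high H19, and they differed mainly in Igf2.

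MicroRNA miR-675 is cut from the H19 transcript, and its locus (chr7:142577064-142577147, 84 bases) had an entry of its own. Its mature strands, from RefSeq (GRCm38.p6), are shown with the seed, bases 2 to 8, in capitals, because they are the part of H19 that acts as a microRNA. The strands have different seeds.
mmu-miR-675-5p: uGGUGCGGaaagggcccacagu
mmu-miR-675-3p: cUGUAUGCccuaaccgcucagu

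The Mir675 entry was at 702.9 FPKM in iPGC library 1 and at or next to 0 in the other 7 libraries, including PGCLC library 2, where H19 was highest. FPKM of a locus shorter than the sequenced fragments is uncertain, and these values give no ratio to H19. Mir483, inside Igf2, was listed at 0 in all 8 libraries. Igf2os was at 2.17 FPKM in PGC library 2 and at 0.251 FPKM or below elsewhere, including the 4 libraries with the most Igf2.

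Igf2r, the receptor that carries Igf2 to lysosomes, was the steadiest of the 7 genes. It had 9.74 and 10.0 FPKM in EGCs, 15.6 and 16.0 FPKM in PGCLCs, 16.7 and 24.4 FPKM in iPGCs, and 21.3 and 20.2 FPKM in PGCs. EGCs were lowest and PGCLCs next, with neither overlapping another group, whereas iPGCs and PGCs overlapped. The highest library was 2.51 times the lowest. The difference of EGCs was -1.0 ± 0.46 from PGCs (SE, limma adjusted p = 0.317), -0.96 from iPGCs and -0.63 from PGCLCs. The median of all tested genes was 0.07, -0.40 and -0.38 in these 3 comparisons.

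Airn was at 3.67 FPKM or below in every library and was the only one of the 7 with libraries listed at 0. It was listed at 0 in EGC line 4 and at 1.41 FPKM in EGC line 7, at 0 and 2.07 FPKM in PGCLCs, at 1.98 and 1.59 FPKM in iPGCs, and at 3.67 and 0 FPKM in PGCs. In each of EGCs, PGCLCs and PGCs 1 library was listed at 0 and the other was above 1 FPKM, so the PGC libraries overlapped every group, and only the EGC lines lay wholly below another group, the iPGCs. A 0 in such a table may be a failed estimate. Igf2r was 5.80 to 15.4 times Airn in the 5 libraries where Airn was above 0. All differences of Airn between groups lay between -0.84 and 0.36, and 5 of the 6 turned sign when single libraries were left out.

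Grb10, an adaptor protein that binds the insulin and IGF1 receptors and dampens their signal, was highest in PGCs. It had 2.50 and 2.91 FPKM in EGC lines 4 and 7, 13.7 and 8.73 FPKM in PGCLCs, 22.7 and 5.72 FPKM in iPGCs, and 61.0 and 34.4 FPKM in PGCs. Every PGC library lay above all others and every EGC line below, with PGCLCs and iPGCs overlapping in between. The Grb10 difference of EGCs from PGCs was -3.66 ± 0.69 (SE, limma adjusted p = 0.0659), the smallest adjusted p of the 7 genes. It was -1.97 for PGCLCs (adjusted p = 0.167) and -1.89 for iPGCs (0.186), each set against PGCs. These 3 comparisons share the PGC libraries.

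**Figure D2:**
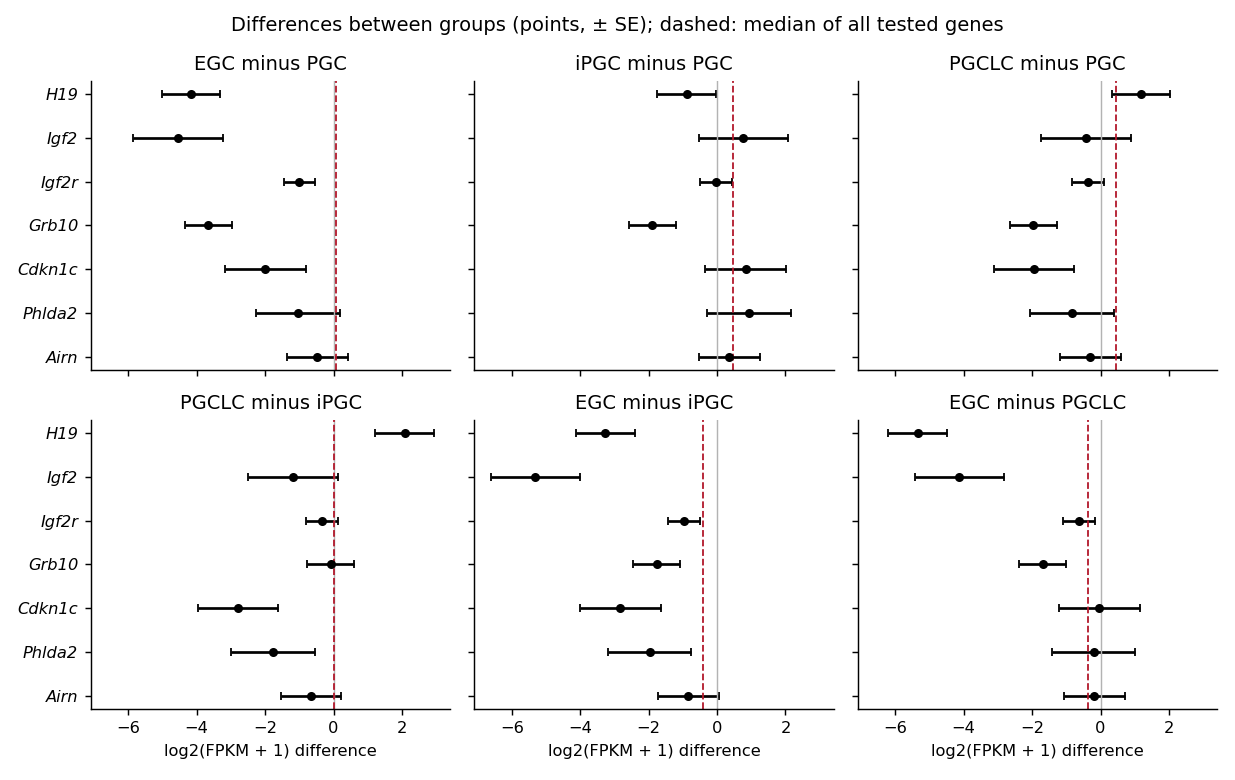
Difference between groups on the log2(FPKM + 1) scale for each of the 7 genes in the 6 comparisons, tested over all 11083 genes. Points are differences with their SE, and the dashed line is the median of all tested genes; all 7 points lie below 0 in the 3 comparisons of EGCs, and no difference passed the adjusted threshold.

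Cdkn1c encodes the cell cycle inhibitor p57, which halts division by blocking cyclin-dependent kinases. It had 0.263 and 0.316 FPKM in EGCs, 0.523 and 0.156 FPKM in PGCLCs, 8.35 and 7.98 FPKM in iPGCs, and 21.8 and 0.150 FPKM in PGCs. The iPGC libraries were nearly equal and above both PGCLC libraries and both EGC lines. The PGC pair was 145.5 times apart and held both the highest and the lowest value of the series. About 4.9 reads lie behind the lowest one, if all annotated exons were counted and the uncertain depth estimate holds.

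As the plot of Cdkn1c beside marker sums shows, PGC library 1, the one with Cdkn1c, had the higher yolk sac, blood and mesoderm sums. Igf2 was 81.0 FPKM in it, against 9.13 FPKM in PGC library 2. Yolk sac markers summed to 1.70 and 17.5 FPKM in PGCLCs and to 13.9 and 18.0 FPKM in iPGCs. Apoc2 alone was at 12.5 FPKM in PGCLC library 2, where Cdkn1c was at 0.156 FPKM. In that library 3 of these markers reached 1 FPKM, against 4 and 7 in iPGC libraries 1 and 2. The part of such cells in the Cdkn1c and Igf2 levels was not tested. With PGC library 2 left out, Cdkn1c passed the test both in EGCs (a difference of -4.15, limma adjusted p = 0.0445) and in PGCLCs (-4.11, 0.0304) against the remaining PGC library, again assumed to vary like the other groups. With PGC library 1 left out the signs turned, with differences of 0.16 and 0.21. The comparison with iPGCs does not use PGC values: EGCs differed from iPGCs by -2.83 (limma adjusted p = 0.458) and PGCLCs from iPGCs by -2.79 (1).

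**Figure D3:**
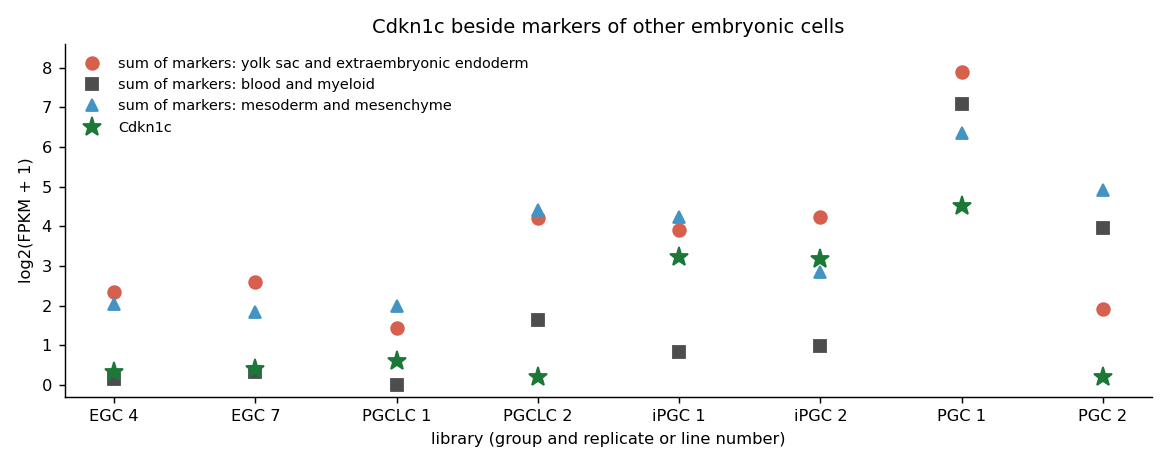
Cdkn1c (stars) and the summed FPKM of 3 fixed marker lists in each library, as log2(FPKM + 1), with EGC, PGCLC, iPGC and PGC libraries from left to right. PGC library 1 has the highest Cdkn1c and the highest sum of all 3 lists, and both iPGC libraries have Cdkn1c with lower sums.

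Phlda2, a small protein that holds back growth of the placenta, did not follow Cdkn1c although the genes are neighbours. It had 4.61 and 11.6 FPKM in EGCs, 2.01 and 30.2 FPKM in PGCLCs, 32.0 and 32.1 FPKM in iPGCs, and 5.13 and 47.6 FPKM in PGCs. The iPGC libraries lay above both EGC lines and both PGCLC libraries, and the PGC libraries overlapped every group. Cdkn1c was 4.26 times Phlda2 in PGC library 1 and 0.00315 times in PGC library 2, so the PGC library with more Cdkn1c had less Phlda2. No difference of Phlda2 exceeded 1.97 in size (EGCs minus iPGCs), and its F test gave a limma adjusted p of 0.628.

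By the median over the 7 genes, the iPGC libraries were the most alike. For Grb10 (a distance of 1.82) and Igf2r (0.52), though, the iPGC pair was the farthest apart of the pairs. The median distance between replicate libraries over the 7 genes was 0.36 on the log2(FPKM + 1) scale in EGCs, 1.05 in PGCLCs, 0.20 in iPGCs and 2.22 in PGCs. Over all tested genes it was 0.63, 0.70, 0.44 and 0.81 in the same order. By this median the PGC pair was farther apart for these genes than for the typical gene. The median of 2.22 is the distance for Airn, and the 90th percentile of all tested genes was 2.51. Cdkn1c (4.31), Igf2 (3.02) and Phlda2 (2.99) lay beyond that percentile. Igf2r (0.07) was closer than the typical gene in PGCs, and Grb10 (0.81) was about level with it.

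Across the 3 comparisons of EGCs, all 7 differences were negative each time, and the median of the 7 was -1.99 against PGCs, -1.97 against iPGCs and -0.63 against PGCLCs. Among all tested genes 46.9%, 69.5% and 66.2% were negative in the same order. Both EGC lines lay below both libraries of the other group for 4 of the 7 genes against PGCs, where 20% of all genes did so. The same held for all 7 genes against iPGCs, where 39.5% of all genes did so, and for 4 against PGCLCs, where the share was 34.2%. For none of the 7 did both lines lie above both libraries of PGCs, iPGCs or PGCLCs, where 24.1%, 10.8% and 11.8% of all genes did so. The 3 comparisons share the EGC lines and are not separate evidence.

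In PGCLCs, 6 of the 7 genes had a negative difference from PGCs, against 33.6% of all tested genes, with H19 the exception. In iPGCs it was 3 of the 7, against 33.2% of all tested genes. The median of the 7 differences was -0.42 in PGCLCs and 0.36 in iPGCs. For PGCLCs, 2 of the 7 genes lay wholly below PGCs (Igf2r and Grb10), where 11.8% of all genes did, and 1 wholly above (H19), where 33.5% did. For iPGCs, 2 lay wholly below (H19 and Grb10), where 13.1% of all genes did, and none wholly above, where 39.4% did. PGCLCs lay wholly below iPGCs for 3 genes (Igf2r, Cdkn1c and Phlda2), where 19.6% of all genes did, and wholly above for H19, where 17.3% did.

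The partners of Igf2 outside the imprinted set were read from a list of 18 ligands, receptors and binding proteins, of which 10 were tested. Only Igfbp2 passed, and it was higher in all 3 groups than in PGCs. Igfbp2, a secreted protein that binds Igf1 and Igf2, had 68.9 and 73.9 FPKM in EGCs, 122.2 and 34.9 FPKM in PGCLCs, 111.7 and 118.0 FPKM in iPGCs, and 5.16 and 2.63 FPKM in PGCs. The differences from PGCs were 3.94 ± 0.61 in EGCs (SE, limma adjusted p = 0.0359), 3.81 in PGCLCs (0.0378) and 4.62 in iPGCs (0.0195). The call in EGCs was lost without any 1 of the PGC, iPGC or EGC libraries, the call in PGCLCs without any 1 of the 8, and the call in iPGCs without any 1 of the iPGC or EGC libraries, while the difference stayed at 2.92 or more in every alternative. Over all alternatives, changes of pseudocount, filter, scaling and fit included, the call held in 6 of 15 for EGCs (limma adjusted p from 0.0212 to 0.378), in 2 of 17 for PGCLCs (0.0283 to 0.336) and in 9 of 17 for iPGCs (0.0145 to 0.228).

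The receptors did not pass. Igf1r, which transmits the Igf2 signal, had 6.57 and 3.18 FPKM in EGCs, 5.01 and 2.52 FPKM in PGCLCs, 4.61 and 4.31 FPKM in iPGCs, and 9.45 and 1.25 FPKM in PGCs, with all groups overlapping PGCs. The insulin receptor gene Insr had 7.75 and 4.97 FPKM in EGCs, 2.62 and 3.54 FPKM in PGCLCs, 6.61 and 4.62 FPKM in iPGCs, and 0.585 and 1.84 FPKM in PGCs. All 3 groups lay above PGCs for Insr, and the limma adjusted p was 0.202 in EGCs, 0.448 in PGCLCs and 0.199 in iPGCs.

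Of 28 genes of insulin and IGF signalling inside the cell, all were tested and none passed in any comparison. Their median difference from PGCs was 0.12 in EGCs, 0.24 in PGCLCs and 0.10 in iPGCs, beside 0.07, 0.44 and 0.47 over all tested genes. Akt1, a kinase of this pathway, had the largest of the 28 differences between EGCs and PGCs, -2.56 (limma adjusted p = 0.0856). It had 1.36 and 4.28 FPKM in EGCs, against 21.5 and 18.2 FPKM in PGCs. None of the 7 paralogues of the imprinted genes passed either, with Cdkn1a (2.97), Grb14 (2.15) and Phlda3 (1.92) furthest from 0 between EGCs and PGCs. Cdkn1a, the paralogue of Cdkn1c that encodes p21, had 63.9 and 45.9 FPKM in EGCs, 56.8 and 26.7 FPKM in PGCLCs, 62.7 and 75.3 FPKM in iPGCs, and 0 and 48.7 FPKM in PGCs, where the library listed at 0 was the one with Cdkn1c.

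Among the neighbours of the 7 genes, 30 of 31 listed had an entry and 15 were tested. Tnnt3, a skeletal muscle troponin gene 59.5 kb from H19, passed. It was listed at 0 in both EGC lines, with 63.9 and 35.2 FPKM in PGCLCs, 4.01 and 3.65 FPKM in iPGCs, and 40.1 and 10.9 FPKM in PGCs. It was lower in EGCs than in PGCs (limma adjusted p = 0.0388) and than in PGCLCs (0.0368), and with EGCs listed at 0 no fold can be stated. Both calls were lost without any 1 of the iPGC, PGCLC or EGC libraries, and the call against PGCs also without PGC library 1. Both were also lost with a pseudocount of 5 (limma adjusted p = 0.117 against PGCs and 0.101 against PGCLCs), without the filter (0.106 and 0.143) and with only the groups compared (0.392 and 0.0769), and that against PGCLCs with equal library medians (0.0552). Each call held in 5 of 15 alternatives, with limma adjusted p from 0.0117 to 0.392 against PGCs and from 0.0117 to 0.407 against PGCLCs. H19 and Tnnt3 had the same order of group means, as the plot of H19 beside its neighbour shows.

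**Figure D4:**
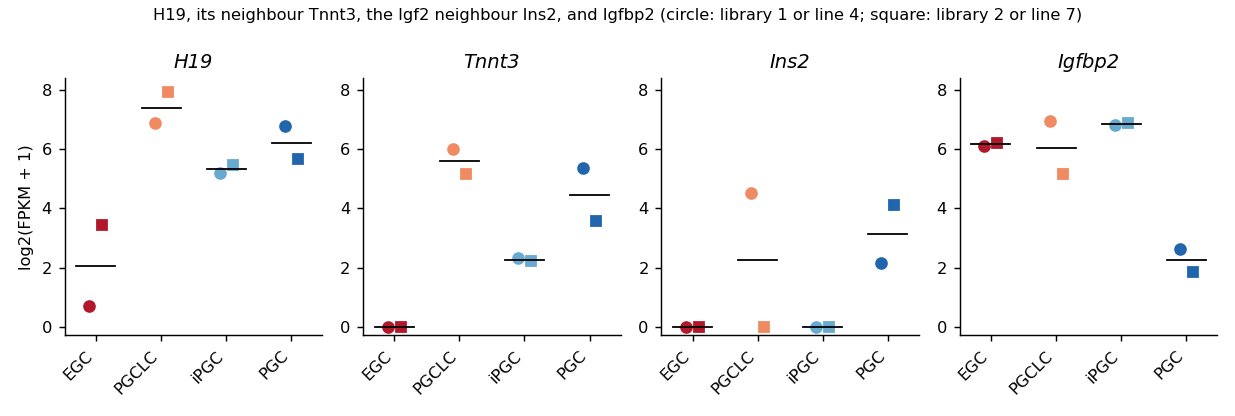
Level as log2(FPKM + 1) of H19, of Tnnt3 (a neighbour of H19), of Ins2 (next to Igf2) and of Igfbp2 in every library, with EGCs, PGCLCs, iPGCs and PGCs from left to right; lines are means of the pair. H19 and Tnnt3 are highest in PGCLCs and lowest in EGCs, Ins2 is listed at 0 in 5 of 8 libraries, and Igfbp2 is lowest in PGCs.

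The other immediate neighbours did not pass in any comparison. Mrpl23, between Tnnt3 and H19, was too low to be tested, at 2.20 FPKM or below. Ins2, which codes for insulin and lies 11.8 kb from Igf2, was listed at 0 in both EGC lines and both iPGC libraries, with 21.9 and 0 FPKM in PGCLCs and 3.41 and 16.4 FPKM in PGCs. Nap1l4, 10.4 kb from Phlda2, had 13.4 and 11.9 FPKM in EGCs, and 18.5 to 31.1 FPKM in the other 6 libraries. Slc22a18, 2.2 kb from Phlda2, had 2.39 and 4.77 FPKM in iPGCs, and 0 in both PGC libraries and both EGC lines. Ddc, an enzyme of dopamine synthesis 32.4 kb from Grb10, had 24.4 and 9.51 FPKM in PGCLCs, against 0.512 and 0.281 FPKM in PGCs, a difference of 3.55 (limma adjusted p = 0.0548). Grb10 itself was lower in those PGCLCs than in PGCs by group means.

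Patterns over the 8 libraries were compared by the mean absolute difference between centred log2(FPKM + 1) values, over 6812 genes, for the 5 members that spanned at least 4 on that scale. The genes closest to H19 were Slco5a1 (0.733), Fgfr2 (0.736) and Nrk (0.747). Those closest to Igf2 were Crabp1 (1.02), Fxyd5 (1.05) and Rmnd1 (1.14), all farther off than the nearest genes of the other 4. Grb10 was closest to Rnf149 (0.408), Polg (0.434) and Hras (0.436), and Phlda2 to M1ap (0.384), Smim20 (0.450) and G6pc3 (0.514). Cdkn1c was closest to Rtn1 (0.28), Apob (0.436) and Myl7 (0.470). Apob, a lipoprotein gene of yolk sac and liver, had 43.2 FPKM in PGC library 1 and 0.0481 FPKM in PGC library 2, and Myl7, a heart muscle myosin gene, had 60.4 and 0 FPKM there.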

How the data were processed

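Total RNA of 8 libraries was amplified and sequenced as 50-base single-end reads in 2 lanes, per the labels' protocols. TopHat2, Cufflinks and the GRCm38 (mm10) genome are named in the submitters' processing notes; their versions, the annotation and the strand setting were not given in the sources used here. The deposited table holds FPKM made by the authors, with no read counts, so no count test was run. Depths are approximate and were read from steps between low FPKM values; spike-ins were not analysed here. Of 20171 entries, 18 repeats of 15 identifiers were dropped, and 19747 identifiers were found in GENCODE M21.

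Genes were kept if at least 2 libraries reached 1 FPKM, and values were tested as log2(FPKM + 1), a scale that understates differences of low genes. The test was limma 3.58.1 in R 4.3.3, with trend and robust variance. All 8 libraries shared 1 estimate of the spread (residual degrees of freedom 4, median prior 4.53). P-values are two-sided, adjusted by the Benjamini-Hochberg method over all genes of a comparison, with a threshold of 0.05. The fit was tested on simulated data with known changes and the same spread in every group. In the real libraries the 90th percentile of distances between replicates was 2.51 in PGCs and 1.27 in iPGCs. The simulation therefore does not cover unequal spread. The genes and lists described here were chosen with earlier results of these data known. List genes are named if they passed in any comparison or lie next to one of the 7 genes, and some others from among the 4 largest differences of their list. Igf1r was named besides, after its values were seen. Alternatives were other pseudocounts (0.1 and 5), filters and scalings, a fit per pair of groups, a block for replicate numbers, and the omission of single libraries.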

Additional observations from a re-analysis of the deposited data

How the results depend on the processing

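Calls moved with the settings. The number of the 7 genes called stayed at 0 in 105 alternative counts and became 1 in 5. It was 1 between EGCs and iPGCs with only the groups compared (Igf2). It was 0 to 1 with single libraries left out between EGCs and PGCs, PGCLCs and PGCs, EGCs and PGCLCs, and in the F test; the cause was not tested. Some small differences turned sign under other scalings. With equal library medians they were 0.26 for Airn, 0.40 for Cdkn1c and 0.24 for Phlda2 (EGCs minus PGCLCs) and -0.13 for Airn (iPGCs minus PGCs). With quantile normalization they were 0.0674 for Cdkn1c and 0.15 for Phlda2 (EGCs minus PGCLCs) and -0.38 for Airn (iPGCs minus PGCs).

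Leaving out single libraries also turned signs, and the values then ran over these ranges. For EGCs minus PGCs they were -1.59 to 0.63 for Airn, -4.15 to 0.16 for Cdkn1c and -2.53 to 0.46 for Phlda2. For EGCs minus PGCLCs they were -0.99 to 0.63 for Airn, -0.24 to 0.16 for Cdkn1c and -1.89 to 1.48 for Phlda2. For PGCLCs minus PGCs they were -1.41 to 0.81 for Airn, -4.11 to 0.21 for Cdkn1c, -2.46 to 1.62 for Igf2 and -2.52 to 0.86 for Phlda2. For PGCLCs minus iPGCs they were -1.47 to 0.15 for Airn, -0.99 to 0.83 for Grb10 and -3.23 to 0.85 for Igf2. For iPGCs minus PGCs they were -0.75 to 1.47 for Airn, -1.32 to 2.99 for Cdkn1c, -0.74 to 2.28 for Igf2, -0.29 to 0.23 for Igf2r and -0.56 to 2.43 for Phlda2. The signs of H19 in all 6 comparisons, and of Grb10 in all but PGCLCs minus iPGCs, held in every alternative run.

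The count of genes called over the whole table was 82 for EGCs, 88 for iPGCs and 117 for PGCLCs against PGCs, 2 for PGCLCs against iPGCs, and 13 and 11 for EGCs against iPGCs and PGCLCs. In that order of comparisons, no filter (15250 genes tested) gave 14, 18, 0, 0, 8 and 7. A pseudocount of 5 gave 31, 34 and 32 against PGCs and 1 for PGCLCs against iPGCs, and a pseudocount of 0.1 gave 166 for iPGCs and 183 for PGCLCs against PGCs. Quantile normalization gave 45 for iPGCs and 36 for PGCLCs against PGCs and 1 for PGCLCs against iPGCs, and equal medians gave 46 and 54 for iPGCs and PGCLCs against PGCs. With only the groups compared, the counts against PGCs were all 0, and that of PGCLCs against iPGCs was 4. With single libraries left out the ranges were 7 to 107, 5 to 222, 0 to 289, 0 to 5, 5 to 17 and 0 to 39 in the order above. Replicate numbers shared by PGCs, iPGCs and PGCLCs gave no sign of pairing, with deviations from group means correlated at 0.007, -0.029 and 0.058. With 2 libraries a group this cannot settle whether same-numbered libraries share an origin, which the sources do not give. A fit with the replicate block gave 10 calls for iPGCs and 2 for PGCLCs against PGCs and 0 for PGCLCs against iPGCs, and the same 6 libraries without the block gave 32 for iPGCs and 39 for PGCLCs against PGCs.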

Other observations

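Among 29 tested genes of 40 other imprinted genes listed, 2 passed the test in any comparison (limma adjusted p below 0.05). Mirg, a long noncoding RNA that hosts microRNAs in the Dlk1 and Dio3 region, had 66.8 and 51.4 FPKM in EGCs, 0.350 and 0.164 FPKM in PGCLCs, 2.27 and 2.52 FPKM in iPGCs, and 0.534 and 0.587 FPKM in PGCs. It was higher in EGCs than in PGCs by 5.26, than in PGCLCs by 5.57 and than in iPGCs by 4.13 on the log2(FPKM + 1) scale (limma adjusted p = 0.00861, 0.0112 and 0.0461). The call against PGCs was lost without either EGC line, that against PGCLCs without either EGC line or PGCLC library, and that against iPGCs without any 1 library other than those of PGCs. Over all alternatives, changes of pseudocount, filter, scaling and fit included, the Mirg call held in 12 of 15 against PGCs (limma adjusted p from 0.00523 to 0.258), in 11 of 15 against PGCLCs (0.00584 to 0.153) and in 5 of 15 against iPGCs (0.0138 to 0.637). Against iPGCs it was lost with a pseudocount of 0.1, without the filter, with the filter at 5 FPKM and with only the groups compared. The other listed genes of the Dlk1 and Dio3 region were too low to be tested. Rian, Dlk1 and Dio3 were listed at 0 in all 8 libraries. Meg3 was at 0.00378 FPKM or below and Rtl1 at 0.0108 FPKM or below, so the Mirg level does not stand for the region. Peg3, a paternally read zinc finger gene, had 28.3 and 12.96 FPKM in EGCs, 105.5 and 79.4 FPKM in PGCLCs, 25.1 and 22.2 FPKM in iPGCs, and 162.5 and 125.7 FPKM in PGCs. It was lower in EGCs than in PGCs by a log2 difference of -2.83 (limma adjusted p = 0.0454), a call lost without any 1 of the 8 libraries, with a pseudocount of 5, without the filter and with only the groups compared (held in 4 of 15 alternatives, limma adjusted p from 0.0359 to 0.392).

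Of 25 genes that set, erase or maintain imprints, all tested, 3 passed. Dnmt3l, the cofactor of de novo DNA methylation, had 14.1 and 42.5 FPKM in EGCs, 13.4 and 15.6 FPKM in PGCLCs, 51.8 and 53.4 FPKM in iPGCs, and was listed at 0 in both PGC libraries. It was higher than in PGCs in EGCs, PGCLCs and iPGCs (limma adjusted p = 0.0239, 0.0351 and 0.0107), and the call in iPGCs was lost without either iPGC library, in EGCs without any 1 library other than those of PGCs, and in PGCLCs without PGC library 1 or any 1 of the iPGC or PGCLC libraries. Over all alternatives the Dnmt3l call held in 6 of 15 for EGCs (limma adjusted p from 0.006 to 0.392), in 6 of 17 for PGCLCs (0.00933 to 0.336) and in 14 of 17 for iPGCs (0.00284 to 0.171). Dnmt3b, a DNA methyltransferase, had 66.1 and 38.8 FPKM in EGCs, against 4.52 and 0.141 FPKM in PGCs, a log2 difference of 4.36 (limma adjusted p = 0.0488). PGCLCs, at 11.6 and 8.44 FPKM, and iPGCs, at 21.3 and 14.5 FPKM, also lay above both PGC libraries for Dnmt3b. Their differences from PGCs, 2.12 and 2.89, did not pass. Dppa3, which guards maternal marks in the zygote, had 40.3 and 100.6 FPKM in EGCs, against 409.5 and 573.7 FPKM in PGCs, a log2 difference of -2.91 (limma adjusted p = 0.0488). Its level was 725.9 and 399.6 FPKM in PGCLCs and 423.4 and 317.1 FPKM in iPGCs. The Dppa3 call was lost without any 1 of the 8 libraries and the Dnmt3b call without any 1 except PGC library 1. Both were also lost with a pseudocount of 5, without the filter and with only the groups compared, and Dnmt3b with a pseudocount of 0.1 and with equal library medians. The Dppa3 call held in 4 of 15 alternatives (limma adjusted p from 0.0306 to 0.392) and the Dnmt3b call in 3 of 15 (0.0173 to 0.392).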
